A study of Homo sapiens with 6 samples.

Results

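The genes described here are 9 human genes that detect foreign or misplaced nucleic acid or pass that signal on: the RNA sensors IFIH1, DHX58 and TLR3, the DNA sensors CGAS and IFI16, the adaptors MAVS and STING1, the kinase TBK1 and the transcription factor IRF3. They were taken by gene symbol from the 38167 genes of the deposited count table, and all 9 were found and passed the filter on low counts. The libraries come from Cal27, an established line from a human tongue squamous cell carcinoma, grown without other cells named in the labels as spheroids in Matrigel, a basement membrane gel. The soft group had 3 mg/mL Matrigel and the stiff group 12 mg/mL, with 3 libraries each, all from day 14 and with no other treatment in the labels. Stiffness and the amount of matrix ligand rise together with Matrigel concentration and cannot be told apart. The labels call the libraries biological replicates without naming cultures or dates, and p-values here speak only of the spread among these 6 libraries.

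Cells carry sensors for RNA and DNA found where it should not be. IFIH1 (the protein MDA5) and RIG-I bind double-stranded RNA in the cytosol and act through MAVS on the mitochondrion, DHX58 (LGP2) is a relative without the signalling domain, and TLR3 reads double-stranded RNA in endosomes through the adaptor TICAM1. CGAS makes a cyclic dinucleotide on DNA that activates STING1, and IFI16 binds DNA in the nucleus and cytosol. These routes meet at TBK1, which phosphorylates IRF3, and IRF3 then switches on interferon genes. Many sensors are themselves induced by interferon, through a promoter motif called the interferon-stimulated response element.

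The upstream sequences of IFIH1 and TLR3 are shown because these genes had the largest fold changes of the 9 and both windows hold the core of that element, searched on both strands as GAAA, any 2 bases and GAAA again. Of the 9 genes, 5 (IFIH1, TLR3, MAVS, IFI16 and TBK1) had a window in the RefSeq promoter table (GRCh38.p14), each from 250 bases before to 50 bases after a transcript start. Capitals mark matches, sequences run 5′ to 3′ on the gene's strand, and positions are counted from the transcript start as +1.
IFIH1, chr2:162318685-162318854, minus strand, positions -170 to -1: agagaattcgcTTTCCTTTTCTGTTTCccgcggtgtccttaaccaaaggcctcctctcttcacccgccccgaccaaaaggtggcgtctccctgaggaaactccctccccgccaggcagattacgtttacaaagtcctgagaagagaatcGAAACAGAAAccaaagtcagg
TLR3, chr4:186069062-186069161, plus strand, positions -94 to 6: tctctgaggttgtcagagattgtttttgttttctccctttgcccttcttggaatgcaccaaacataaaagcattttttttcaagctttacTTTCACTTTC
The IFIH1 window held 3 matches. The match at -21 lies on the gene's own strand, and those at -159 and -153 overlap each other on the opposite strand. The TLR3 window held 1 match, at -4 on the opposite strand. The windows of MAVS, TBK1 and IFI16 (which has 2) held none. Those of IFI16 begin at 159008741 and 159009657, downstream of the gene's outermost start at 158999976. That start had no window and was not searched. Among 35116 windows of the same length in the table, 3.57% held a match. A match of these letters is a description of the sequence and not a measured binding site.

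Of the 9 genes, 6 fell in stiff Matrigel, 2 rose and 1 did not pass the test. IFIH1 and TLR3 fell most, each about 2.4-fold (2.38 and 2.37), followed by IFI16 (1.55-fold), MAVS (1.45-fold), STING1 (1.25-fold) and TBK1 (1.2-fold). CGAS and IRF3 rose, each 1.2-fold, and DHX58 did not pass. Both rises were lost when any of the soft libraries was left out (0 of 9 genes rose). Calls are those of edgeR's quasi-likelihood test with a Benjamini-Hochberg adjusted p below 0.05 over all 18676 tested genes. In that test 23.8% of all tested genes fell, 25.3% rose and 49.1% did either. The median log2 fold change was -0.32 over the 9 genes and 0 over all tested genes. In 8 of the 9 genes the soft and stiff levels did not overlap, as in 59.9% of all tested genes. Levels are given as CPM, that is counts scaled to the TMM-adjusted size of each library. In bulk RNA, fewer cells that express a gene and less of its RNA per cell cannot be told apart.

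**Figure D1:**
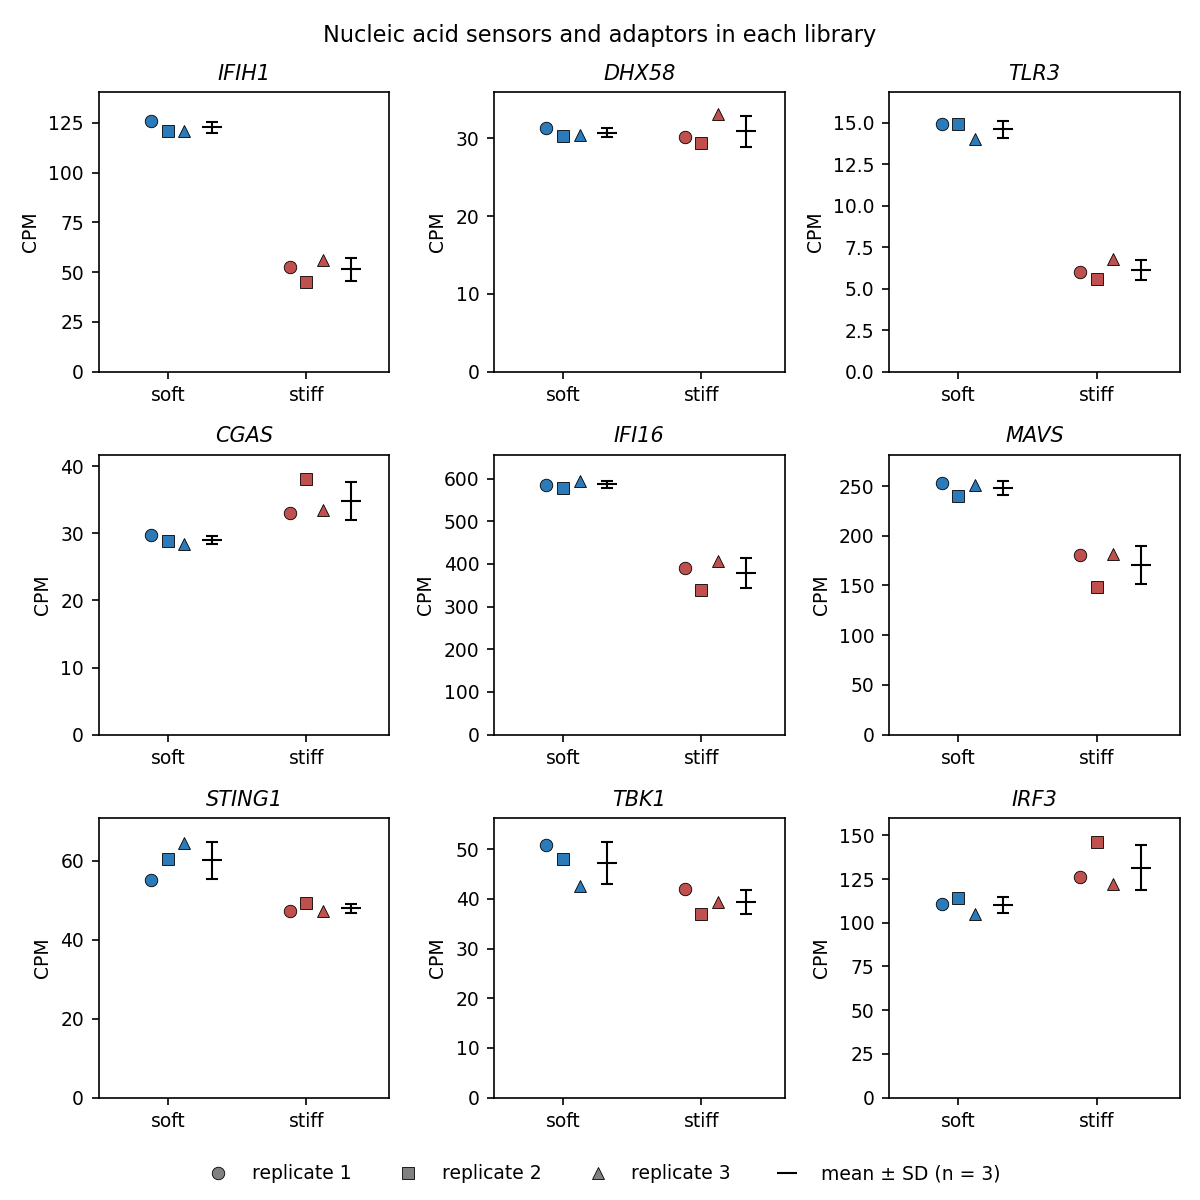
Level of each of the 9 genes in CPM (vertical axes from 0), by library, in soft (blue) and stiff (red) Matrigel. Marker shapes give the replicate number and black bars the mean ± SD of 3 libraries. IFIH1, TLR3, IFI16 and MAVS lie well apart between the groups, DHX58 overlaps, and CGAS and IRF3 are higher in stiff.

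IFIH1 (Entrez 64135, chromosome 2, 162267074 to 162318684), the long RNA sensor, was at 126, 121 and 121 CPM in soft replicates 1 to 3 and at 52.7, 45.2 and 56.3 CPM in stiff. Every soft library was more than double every stiff library. The means were 123 ± 2.56 and 51.4 ± 5.68 CPM (SD, n = 3), a log2 fold change of -1.25 ± 0.086 (SE, edgeR adjusted p = 2.45e-06). TLR3 (Entrez 7098, chromosome 4, 186069156 to 186088073), the endosomal sensor, was at 14.9, 14.9 and 14 CPM in soft and at 6.03, 5.61 and 6.79 CPM in stiff. Its groups were as far apart as those of IFIH1 at a much lower level. TLR3 fell from 14.6 ± 0.523 to 6.14 ± 0.601 CPM (SD, n = 3), a log2 fold change of -1.25 ± 0.107 (SE, edgeR adjusted p = 1.04e-05). Its stiff libraries held 208, 200 and 245 fragments, for which counting alone gives a coefficient of variation of 6.8% beside the 9.8% observed.

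DHX58 (Entrez 79132, chromosome 17, 42101411 to 42112714), the IFIH1 relative that lacks the signalling domain, was at 31.4, 30.3 and 30.5 CPM in soft and at 30.2, 29.4 and 33.1 CPM in stiff. The stiff libraries lay on both sides of the soft ones. The log2 fold change was 0.01 with a 95% interval of -0.16 to 0.18 (edgeR adjusted p = 0.944), so a fold change from 0.892 to 1.13 lay within the interval. RIG-I, the third gene of this family, is listed as DDX58 and fell 1.3-fold, from 92 ± 3.74 to 70.6 ± 3.13 CPM (SD, n = 3, edgeR adjusted p = 0.00125); it was named after its values were seen. The family's 3 genes thus stood at falls of 2.38-fold and 1.3-fold and at an interval around no change.

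MAVS (Entrez 57506, chromosome 20, 3846834 to 3876118), the mitochondrial adaptor of IFIH1 and RIG-I, was at 253, 240 and 251 CPM in soft and at 181, 148 and 182 CPM in stiff. The lowest soft library stood above the highest stiff library. The means were 248 ± 6.76 and 170 ± 19.1 CPM (SD, n = 3, log2 fold change -0.54, 95% interval -0.73 to -0.35, edgeR adjusted p = 0.000574). The adaptor of TLR3, TICAM1, went the other way. It rose 1.54-fold, from 29.9 ± 1 to 46 ± 0.761 CPM (SD, n = 3, edgeR adjusted p = 6.3e-05).

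IFI16 (Entrez 3428, chromosome 1, 158999976 to 159055151), a DNA-binding sensor of the PYHIN family, was the most abundant of the 9 genes. It was at 586, 579 and 594 CPM in soft and at 391, 340 and 407 CPM in stiff. The soft libraries had a coefficient of variation of 1.2% and all lay above the stiff libraries. The log2 fold change was -0.63 (95% interval -0.8 to -0.46, edgeR adjusted p = 0.000111). CGAS (Entrez 115004, chromosome 6, 73423711 to 73452297), the enzyme that makes the second messenger for STING1, was at 29.7, 28.9 and 28.4 CPM in soft and at 33, 38.1 and 33.5 CPM in stiff. All stiff libraries were higher, by a small margin in replicates 1 and 3. CGAS rose by a log2 fold change of 0.27 (95% interval 0.09 to 0.45, edgeR adjusted p = 0.0207). The call was lost when any soft library was left out (adjusted p = 0.0593, 0.0762 and 0.0826 without soft replicates 1, 2 and 3) and with scaling by library size only (adjusted p = 0.0545), within a range of 0.0131 to 0.0968 over all alternatives.

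STING1 (Entrez 340061, chromosome 5, 139475533 to 139482758), the adaptor that CGAS activates, was at 55.3, 60.6 and 64.5 CPM in soft and at 47.3, 49.3 and 47.4 CPM in stiff. Here the soft libraries were the more spread, and the groups did not overlap. STING1 fell from 60.1 ± 4.61 to 48 ± 1.14 CPM (SD, n = 3, log2 fold change -0.32, 95% interval -0.5 to -0.15, edgeR adjusted p = 0.00577). The estimates for the enzyme and its adaptor thus had opposite directions, although the call of CGAS held under only 8 of 16 alternatives.

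TBK1 (Entrez 29110, chromosome 12, 64452120 to 64502114), the kinase on which the routes meet, was at 50.9, 48 and 42.6 CPM in soft and at 41.9, 36.9 and 39.3 CPM in stiff. The gap between soft replicate 3 and stiff replicate 1 was small. TBK1 fell by 0.26 on the log2 scale (95% interval -0.46 to -0.07, edgeR adjusted p = 0.0303), and the call was lost without soft replicate 1, soft replicate 2 or stiff replicate 3 (adjusted p = 0.138, 0.0893 and 0.0739, between 0.0115 and 0.138 over all alternatives). Its relative IKBKE, which phosphorylates the same factors, fell 3.01-fold, from 98.3 ± 0.843 to 32.7 ± 3.8 CPM (SD, n = 3, edgeR adjusted p = 7.32e-07). IRF3 (Entrez 3661, chromosome 19, 49659572 to 49665857), the factor that TBK1 activates, was at 111, 114 and 105 CPM in soft and at 126, 146 and 122 CPM in stiff. All stiff libraries were above the soft ones, with stiff replicate 2 highest. IRF3 rose by a log2 fold change of 0.26 (95% interval 0.08 to 0.44, edgeR adjusted p = 0.0244). That call was lost without soft replicate 1, 2 or 3 (adjusted p = 0.0768, 0.0583 and 0.107) and with limma on log2(TPM + 1) (adjusted p = 0.155), within a range of 0.00543 to 0.169 over all alternatives. The exons of BCL2L12 on the opposite strand cover 20.1% of those of IRF3, and BCL2L12 had a log2 fold change of 0.27 (edgeR adjusted p = 0.0123). Whether the counting used strand is not given in the sources used here, so reads of these neighbours cannot be told apart there and the count of IRF3 is uncertain. The same limit holds over smaller stretches for TBK1 and CGAS. Opposite-strand exons of AC135279.3, absent from the counts, cover 9.46% of those of TBK1. Those of DDX43 (log2 fold change -0.03, edgeR adjusted p = 0.845) cover 4.88% of those of CGAS.

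**Figure D2:**
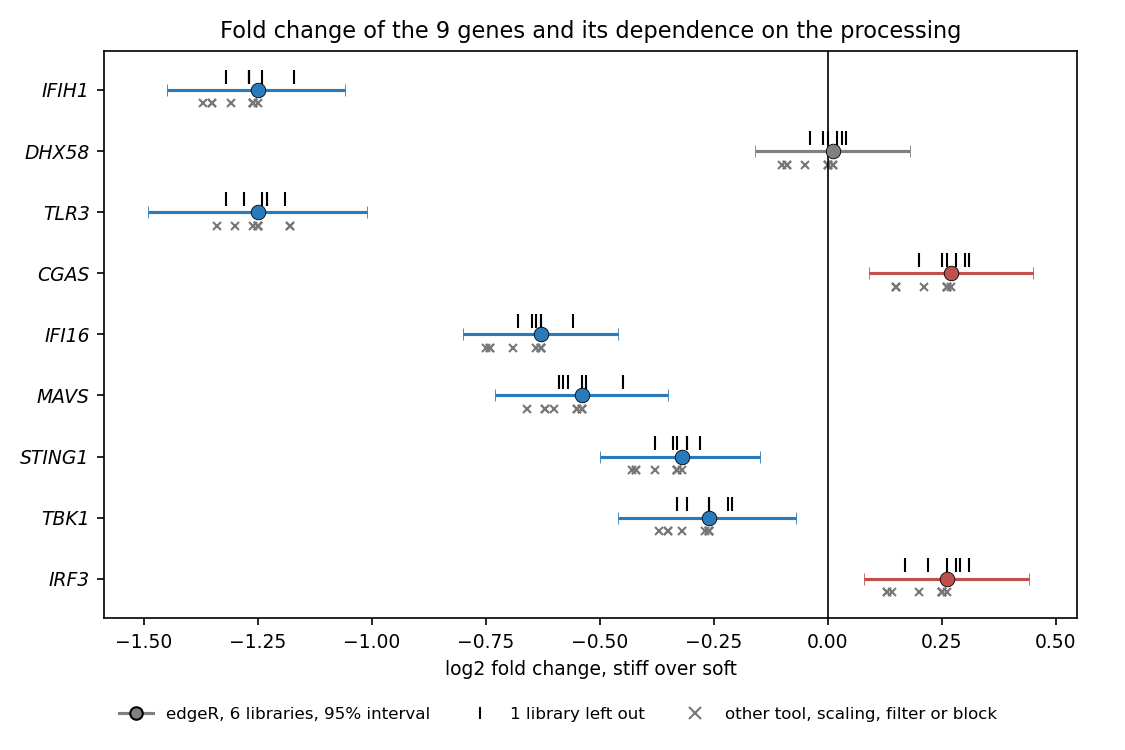
Log2 fold change of stiff over soft (horizontal axis) for each gene. Circles with bars are edgeR estimates with 95% intervals from all 6 libraries (blue lower, red higher, grey not passing), ticks leave out 1 library, and crosses use another tool, scaling, filter or the replicate block. No tick or cross of the 8 genes that passed lies on the other side of 0.

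Scaling moves all genes together, so the weaker changes were also read against the whole table. Of the genes called by edgeR with TMM factors 51.5% were higher in stiff, while with limma on log2(TPM + 1) 41.2% were. With limma on log2(TPM + 0.1) the median of all genes stood at -0.11, CGAS at 0.15 and IRF3 at 0.14. CGAS and IRF3 thus stood above that median, but values relative to it were not tested. Neither gene passed in any limma setting (limma adjusted p = 0.0912 to 0.0968 for CGAS and 0.149 to 0.169 for IRF3). IFIH1, TLR3, IFI16, MAVS and STING1 kept direction and call under all 16 alternatives, with log2 fold changes of -1.37 to -1.17 for IFIH1, -1.34 to -1.18 for TLR3 and -0.75 to -0.56 for IFI16. MAVS ranged from -0.66 to -0.45 and STING1 from -0.43 to -0.28.

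Ratios of counts between the genes within a library need no scaling factor, and 6 were formed after the levels had been seen. IFIH1 held 3.99, 4 and 3.96 fragments per fragment of DHX58 in soft and 1.75, 1.54 and 1.7 in stiff. The balance between these relatives thus shifted 2.4-fold (log2 difference -1.27). The ratio of TLR3 to IFIH1 was 0.119, 0.123 and 0.116 in soft and 0.114, 0.124 and 0.121 in stiff. Those groups overlapped, at 0.119 ± 0.00348 and 0.12 ± 0.00493 (SD, n = 3). IFIH1 over its adaptor MAVS went from 0.495 ± 0.0116 to 0.302 ± 0.00896 (SD, n = 3), a log2 difference of -0.71. Sensor and adaptor both fell, and the sensor fell further.

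For the DNA route, CGAS over STING1 was 0.536, 0.476 and 0.44 in soft and 0.698, 0.773 and 0.706 in stiff. The enzyme gained 1.5-fold on its adaptor (log2 difference 0.59). CGAS over IFI16 went from 0.0494 ± 0.00147 to 0.093 ± 0.0167 (SD, n = 3), and stiff replicate 2 had the highest value, 0.112. TBK1 over IRF3 was 0.46, 0.422 and 0.404 in soft and 0.333, 0.252 and 0.322 in stiff. The ratio of the kinase to its substrate was lower in every stiff library (log2 difference -0.51), with the same limit on the IRF3 and TBK1 counts. In 5 of the 6 ratios the groups did not overlap. Each of these 5 had p = 0.1 in a two-sided exact permutation test, the smallest that 3 against 3 libraries can give, and 0.12 after Benjamini-Hochberg adjustment over the 6; TLR3 over IFIH1 had exact p = 0.8.

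**Figure D3:**
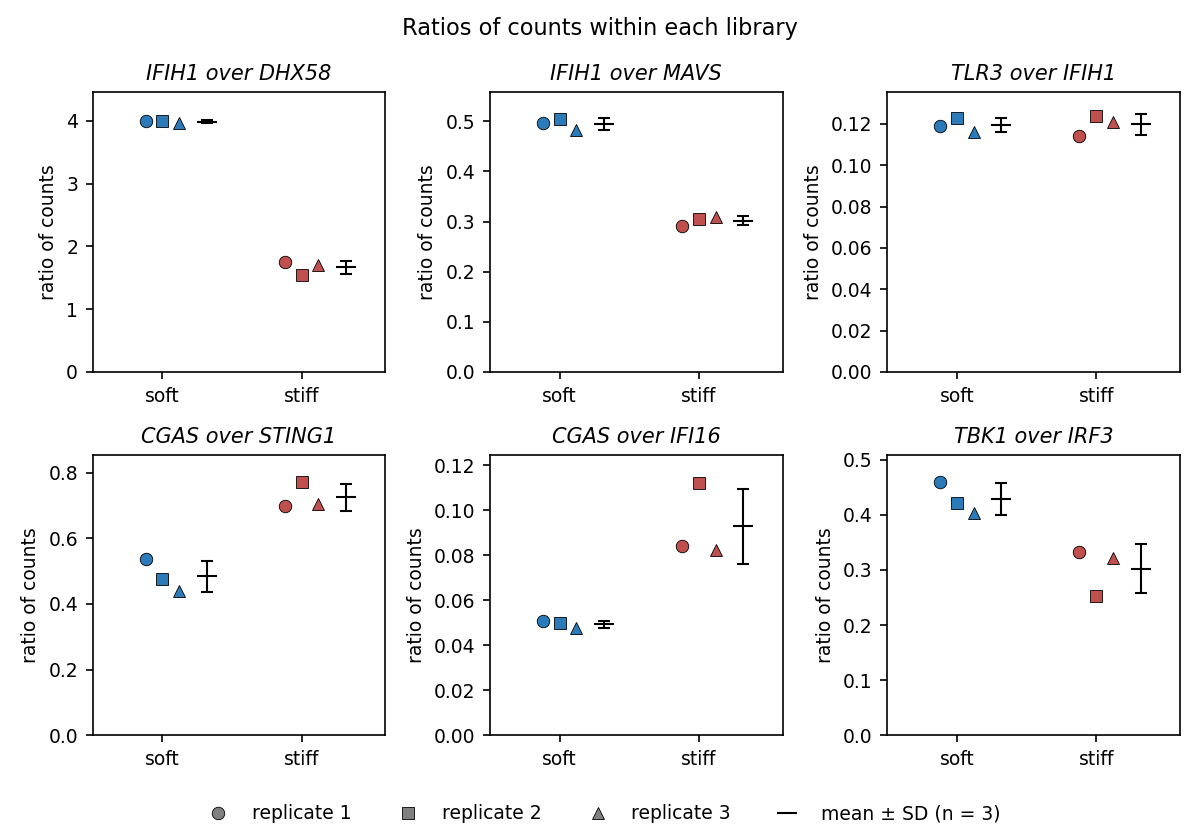
Ratio of fragment counts of paired genes in each library (vertical axes from 0), in soft (blue) and stiff (red), with mean ± SD of 3 libraries in black. TLR3 over IFIH1 is the pair whose groups overlap, and IFIH1 over DHX58 has the widest gap.

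Levels were compared between genes as CPM per kilobase of merged GENCODE 29 exons. In soft the order was IFI16 (200 ± 2.5), IRF3 (45.9 ± 1.72), STING1 (34 ± 2.61), IFIH1 (29.1 ± 0.607), MAVS (21.1 ± 0.575), TBK1 (14.5 ± 1.28), DHX58 (11.8 ± 0.229), CGAS (7.85 ± 0.176) and TLR3 (2.34 ± 0.084), in CPM per kilobase (SD, n = 3). No neighbours in this order overlapped. IFI16 led in both groups and TLR3 was last in both. In stiff IFIH1 stood at 12.2 ± 1.35 CPM per kilobase (SD, n = 3), among MAVS (14.5 ± 1.63), TBK1 (12.1 ± 0.761) and DHX58 (11.8 ± 0.746). Neighbours among these 4 genes overlapped in stiff, so their order there is within the spread. With the longest protein-coding transcript as length, IFIH1 (34.1) and STING1 (34) were level in soft in place of 29.1 and 34. IRF3 stood at 63.1 rather than 45.9 CPM per kilobase with that length, and remained second.

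The deposited TPM order these genes differently. In soft IFIH1 had the highest mean TPM of the 9 (146), CGAS the third (38.6) and IRF3 the seventh (11.7), whereas per kilobase of exon CGAS was at position 8 and IRF3 at position 2. Counts per unit of TPM, which reflect the length the authors divided by, were 11.2 times those of IFIH1 for IRF3, although its merged exons are 0.568 times as long. RefSeq lists 23 transcripts for IRF3, 13 for IFI16 and 2 each for IFIH1 and CGAS. Over 5933 well-counted genes, the length implied by the TPM relative to merged exons had a Spearman correlation of 0.879 with the number of RefSeq transcripts, a description across genes. The same gene's TPM can be compared across libraries, but these TPM were not used to order the 9 genes.

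**Figure D4:**
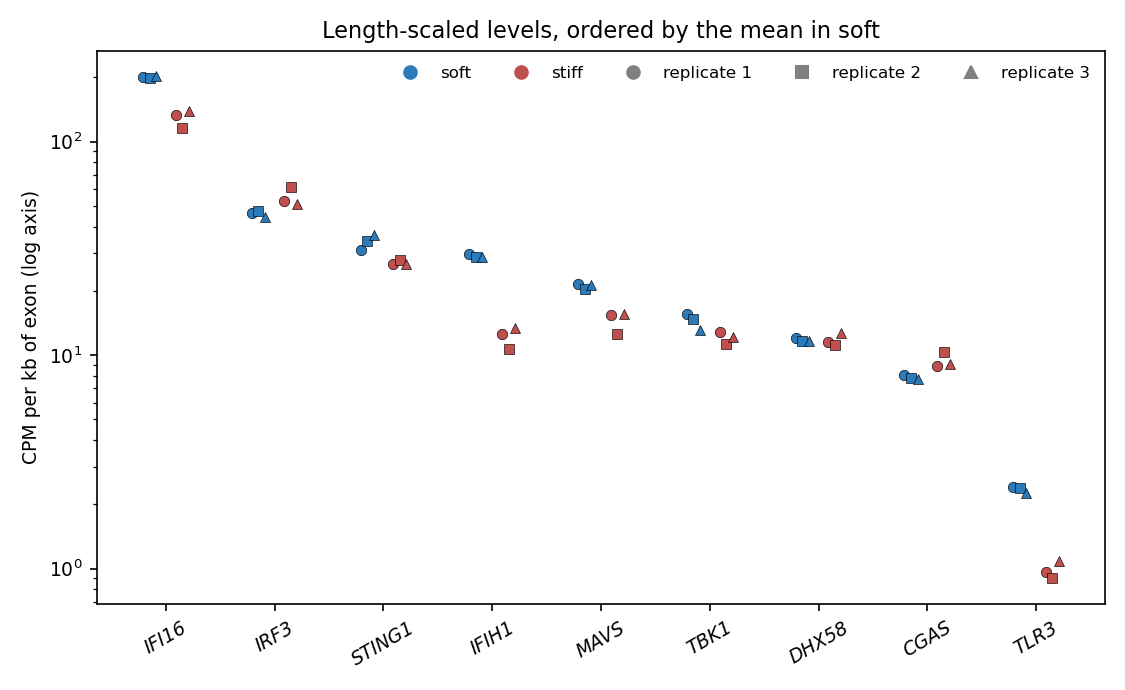
CPM per kilobase of merged exon (log axis) of each gene in each library, ordered by the mean in soft (blue soft, red stiff, shapes for replicates). IFI16 is highest, at 200 in soft, TLR3 lowest, and IFIH1 drops in stiff to the level of MAVS, TBK1 and DHX58.

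Stiff replicate 2 stood apart from the other stiff libraries on the second principal component of all genes (-35 against 21.5 and 18.3), and all 9 genes had their lowest or highest stiff value there. IFIH1, DHX58, TLR3, MAVS, IFI16 and TBK1 were lowest in that library, and STING1, CGAS and IRF3 highest. The same library was at an end for 84.5% of all tested genes. Without it the log2 fold changes were -1.17 for IFIH1, -1.19 for TLR3, -0.56 for IFI16, -0.45 for MAVS and -0.34 for STING1. TBK1 was then at -0.22, CGAS at 0.2, IRF3 at 0.17 and DHX58 at 0.04. The 8 calls held in that setting (edgeR adjusted p = 4.46e-12 to 0.016).

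Most other sensors of nucleic acid fell. Of 21 listed, 17 were tested, 15 fell, 1 rose and DDX41 did not pass, that is 88.2% lower and 5.88% higher where all tested genes gave 23.8% and 25.3%. Their median log2 fold change was -0.61. OAS1 and OAS2, which make the activator of RNase L on double-stranded RNA, fell 1.61-fold and 1.79-fold (edgeR adjusted p = 5.97e-05 and 9.16e-05). The RNA helicase DHX9 fell 1.99-fold, from 162 ± 7.27 to 81.2 ± 3.57 CPM (SD, n = 3, edgeR adjusted p = 2.62e-06), and ZNFX1, an RNA sensor that can act through MAVS, fell from 269 ± 10.8 to 135 ± 23.9 CPM (SD, n = 3). The sensor that rose was NLRP1, an inflammasome sensor of keratinocytes, at 20.6 ± 2.21 and 41.8 ± 6.95 CPM (SD, n = 3, edgeR adjusted p = 0.000132). It and DDX41 were named after their values were seen. The endosomal sensors TLR7 and TLR8, typical of immune cells, had 3 and 2 fragments over all 6 libraries, TLR9 had 31, and the myeloid gene MNDA had 3. Of the endosomal nucleic acid receptors listed, TLR3 was the one that passed the count filter.

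The list of relays held 20 genes of sensor signalling, including transcription factors beside IRF3. All 20 were tested, 6 fell, 4 rose and 10 did not pass (median log2 fold change -0.09). These shares, 30% and 20%, are near those of all tested genes (23.8% and 25.3%). Beside IKBKE and TICAM1, described above, the rule named IRF1, an interferon-induced transcription factor, which fell 1.8-fold (edgeR adjusted p = 1.63e-05), and IRF5, which rose 2.21-fold, from 20 ± 0.921 to 44.3 ± 5.11 CPM (SD, n = 3, edgeR adjusted p = 9.28e-06). IRF7, the interferon-induced relative of IRF3, was at 48.7 ± 4.26 and 45.5 ± 3.94 CPM (SD, n = 3, edgeR adjusted p = 0.401), named after its values were seen. Of the modulators of sensing, 24 were tested, 8 fell, 5 rose and 11 did not pass (median 0.06), or 33.3% lower and 20.8% higher beside the same 23.8% and 25.3%. TRIM25, a ubiquitin ligase acting on RIG-I, fell 2.36-fold and SAMHD1, which degrades nucleotides and limits nucleic acid sensing, fell 2.34-fold (edgeR adjusted p = 8.88e-07 and 6.37e-06). NLRC5, a regulator of MHC class I genes, fell 1.73-fold. LRRC8A, a subunit of channels that can import cyclic dinucleotides, rose 1.58-fold, from 181 ± 8.37 to 285 ± 23.5 CPM (SD, n = 3, edgeR adjusted p = 8.63e-05).

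Of 15 listed targets of IRF3, 11 were tested, 5 fell, 4 rose and 2 did not pass (median 0.13), or 45.5% lower and 36.4% higher beside 23.8% and 25.3% of all tested genes. The antiviral proteins IFIT2 and IFIT3 fell 1.77-fold and 1.58-fold (edgeR adjusted p = 4.08e-05 and 7.71e-05), and the RNase ZC3H12A fell 1.52-fold. The chemokine CXCL11 rose 1.87-fold, from 4.9 ± 0.279 to 9.16 ± 0.551 CPM (SD, n = 3, edgeR adjusted p = 0.000133). The interferon genes themselves were near the limit of detection: IFNB1 had 12 fragments over all 6 libraries, IFNL1 18, IFNL2 16 and IFNL3 13, and IFNL2 and IFNL3 are near-identical copies. These genes lay below the count filter. IFNL3 had 0 fragments in each soft library and 3, 6 and 4 in stiff replicates 1 to 3, and without a filter it passed (edgeR adjusted p = 0.0171); the split of fragments between it and IFNL2, at 2, 2 and 3 in soft and 4, 5 and 0 in stiff, is uncertain. For IFNB1 and IFNL1 no difference was detectable at this depth. Of 15 interferon receptor and JAK-STAT genes, all tested, 9 fell, 2 rose and 4 did not pass (median -0.36), or 60% lower and 13.3% higher beside the same shares of all tested genes. IFNAR2 of the type I receptor fell 1.37-fold, IFNGR1 of the type II receptor 1.31-fold, the kinase JAK1 1.63-fold and the feedback inhibitor SOCS1 2.07-fold (edgeR adjusted p = 0.000678, 0.000779, 0.000281 and 0.000428). The count of those that rose was 1 without soft replicate 2, soft replicate 3 or stiff replicate 1.

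**Figure D5:**
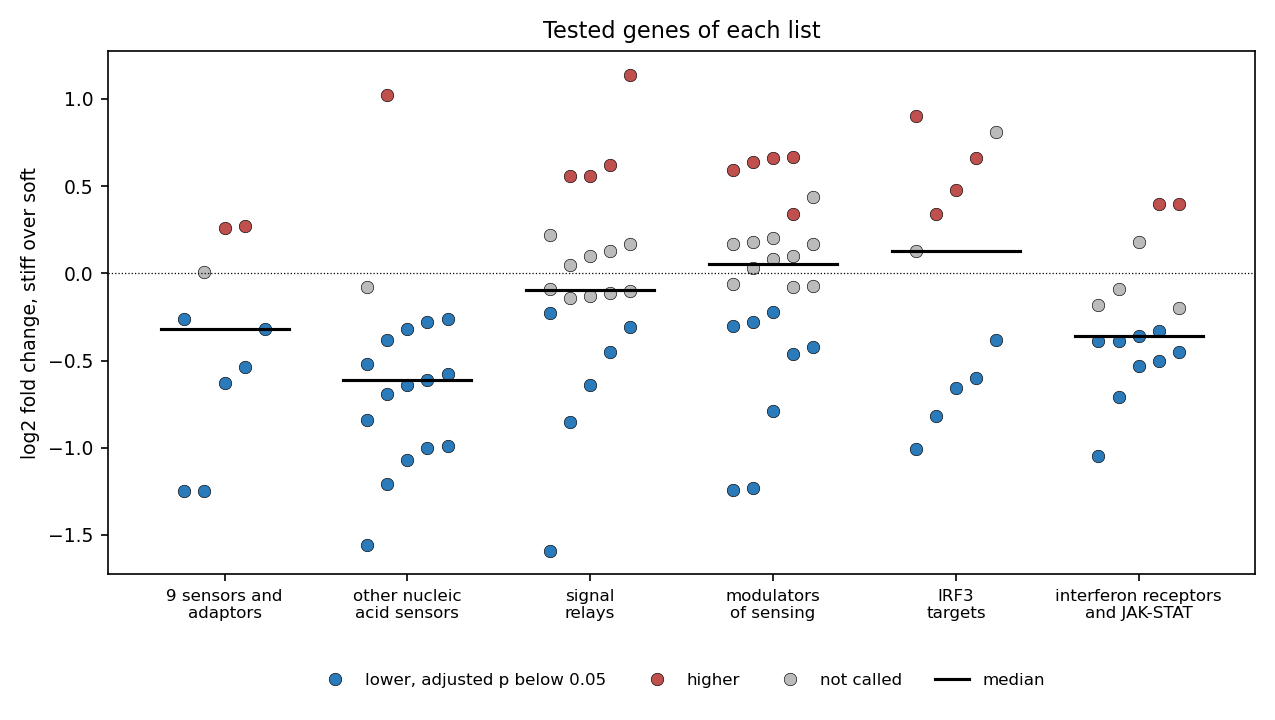
Log2 fold change of stiff over soft (vertical axis) of each tested gene in the 9 sensors and adaptors and in 5 lists of the pathway, with a black line at the median. Blue points passed as lower, red as higher, and grey did not pass. The other sensors lie lowest, with a median of -0.61, and the relays, modulators and IRF3 targets lie on both sides of 0.

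In the promoter table the response element core was also present for 5 of 14 other sensors (AIM2, DDX60, EIF2AK2, MNDA and OAS3). The 4 of these that were tested fell, and MNDA was below the count filter. With or without the core, 15 of the 17 tested other sensors fell, beside 23.8% of all tested genes. The core was present for 8 of 12 IRF3 targets, of which 3 fell, 2 rose and IFNL1, IFNL2 and IFNL3 were below the filter. In that whole list 5 of 11 tested genes fell and 4 rose. Of the relays with a window, 2 of 17 held the core, and 1 of these fell. It was also found for 1 of 23 modulators (LRRC8A, which rose). Among interferon receptor and JAK-STAT genes it was found for 1 of 12 (SOCS1, which fell). A link between the core and the direction of change was not tested.

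The genes with the profile most like a sensor's were sought among 12428 others with a mean of at least 5 CPM, by the root mean square difference of centred log2 CPM over the 6 libraries. For IFIH1 these were TFRC, the transferrin receptor (0.021), ACSL5, a fatty acid ligase (0.0353), and APOL6 (0.0374), where the median gene was at 0.643. For TLR3 they were LOC105375914 (0.0237), TRIM25 (0.0249) and ACSL5 (0.0397), beside a median of 0.634. For IFI16 they were SLC11A2, a metal ion transporter (0.0189), ADD3 (0.0196) and CLINT1 (0.0232), beside a median of 0.349. Likeness here is over 2 groups of 3 libraries, so it is set mainly by the size of the group difference.

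Of all tested genes 25.3% rose and 23.8% fell, the shares beside which the marker counts given here stand. Squamous epithelial markers were high and 7 of 10 rose, with KRT5 at 1970 and 6486 CPM and KRT17 at 1838 and 4211 CPM. EPCAM and CDH1 fell (named after their values were seen, as were KRT5, CD14 and COL1A1). Of 9 leukocyte markers 5 were tested, 3 rose and 1 fell, and their summed level was 105 to 112 CPM in soft and 133 to 148 CPM in stiff, most of it CD68 (55.8 and 101 CPM) and CD14. The pan-leukocyte gene PTPRC had 5 fragments over all 6 libraries. Fibroblast markers summed to 72.8 to 80.3 and 99.1 to 106 CPM (2 of 4 tested rose), most of it COL1A1, at 71.8 and 82.6 CPM. LUM went from 2.31 to 17.3 CPM. Of 5 endothelial markers 3 were tested, 1 rose, 1 fell and 1 did not pass. Their summed level was 10.9 to 13.8 CPM in soft, mostly CDH5, and 3.62 to 4.96 CPM in stiff. CDH5 fell from 10.4 to 0.552 CPM, while VWF, named after its values were seen, rose from 1.58 to 3.22 CPM. The part of these markers in the changes of the sensors was not tested.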

How the data were processed

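The members and gene lists were chosen with earlier results of these data known. Polyadenylated RNA of Cal27 spheroids was sequenced from directional libraries as paired reads, per the labels' protocols. Per the submitters' processing notes, the tools were featureCounts 1.6.2, STAR 2.6.1e, cutadapt 1.9.1, Trim Galore 0.4.2 and FastQC 0.11.7, with the hg38 build. Which annotation and strand setting they used is not given in the sources used here. In the deposited table counts are whole fragments per gene symbol, not normalized, and sum to 30656278 to 40583044 per library. The deposited TPM, made by the authors over lengths they do not state, have 1 decimal and were used for alternatives.

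Groups came from the sample titles. Stiff was compared with soft by edgeR 4.0.16 in R 4.3.3 (quasi-likelihood F test, TMM factors, default filter, no covariate) on the deposited counts of all 6 libraries, and p-values were adjusted over 18676 genes with a threshold of 0.05. SE and intervals derive from the F statistic. The procedure was also run on simulated counts in which few genes were changed. That run does not check the scaling or false calls where 49.1% of tested genes pass, as here. Ratios of counts were compared by exact permutation. Alternatives were DESeq2 1.42.0, other scalings and filters, limma 3.58.1 on log2(TPM + 1) or log2(TPM + 0.1) with or without a mean TPM of at least 1, each library left out, a threshold of 0.01 and a block on the replicate number. The ratios, the levels per kilobase and their alternatives were added after seeing the data. Genes named are all 9 members, the 4 with the smallest p in each of 5 pathway lists, the member of each of 4 cell type lists with the highest mean deposited TPM, a rule written before the TPM lengths had been checked, and the 3 closest profiles of the 3 members that changed most. Positions and promoters are RefSeq's (GRCh38.p14, 9 and 5 of 9 matched), and exon lengths and overlaps are from GENCODE 29. Libraries of a group all differed by more than sampling noise (chi-square over its degrees of freedom 3.39 to 33.2). Protein sequences were not used here.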

Additional observations from a re-analysis of the deposited data

How the results depend on the processing

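IFIH1, TLR3, IFI16, MAVS and STING1 kept their direction and call under the 16 alternatives, and DHX58 passed under none. The count of the 9 genes that rose was 2 and became 0 with scaling by library size only, with limma on log2(TPM + 1) with and without the filter, with limma on log2(TPM + 0.1) and at an adjusted p below 0.01, and it ranged from 0 to 2 with 1 library left out. The count that fell was 5 or 6 throughout. Other sensors that rose were 2 with limma on log2(TPM + 1) without the filter rather than 1. Modulators that rose were 3 with limma on log2(TPM + 0.1) rather than 5, and those that fell were 5 at an adjusted p below 0.01 rather than 8. IRF3 targets that rose were 2 with limma on log2(TPM + 1) without the filter rather than 4. With edgeR and no count filter they were 6, where 15 rather than 11 were tested. They were 5 with DESeq2, 3 with scaling by library size only, and 3 to 5 with 1 library left out. Interferon receptor and JAK-STAT genes that rose were 1 rather than 2 with scaling by library size only, with all 3 limma settings and at an adjusted p below 0.01, and 1 to 3 with 1 library left out. The cause of these changes was not tested. With the replicate number as a block 6 of the 9 genes fell and 2 rose, as without it, while interferon receptor and JAK-STAT genes that fell were 10 rather than 9, and relays and IRF3 targets that rose were 5 each rather than 4. Same-numbered libraries correlated in their deviations from the group means at 0.0733, 0.216 and 0.05, and differently numbered ones at -0.164 to 0.093. Deviations cancel out within a group, which ties these values to each other, so they do not settle whether libraries were paired. The number was not taken to pair libraries because the labels do not say that it marks a shared culture or date. TLR3, at 200 to 245 fragments per stiff library, had the largest counting error of the 9 genes there, a coefficient of variation of 6.8%.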
